A study of Mus musculus with 60 samples.

Results

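The arrays labelled intestine of the St6galnac2 mouse line were set against the arrays labelled small intestine of C57 mice. The comparison is between mouse lines and possibly between parts of the gut, and it is not a test of the knockout. The arrays of the line were chosen by a measured value. An array entered where its probe set for Fut9, a fucosyltransferase gene that is strongly expressed in brain, read below 6 on the log2 scale. That gave 7 of the 60 arrays of the series, 4 from the line and 3 from C57. The line gave animals 9361 (labelled knockout, male), 9362 (wild type, male), 9094 (wild type, female) and 9093 (labelled knockout, female in its title but of unknown sex in its other label). The C57 group held the wild-type animals GDWTM3, GDWTF2 and GDWTF1, whose sex is given as unknown. All mice were labelled healthy, and neither their ages nor the segment of gut was stated in the labels used here. The study screened glycosyltransferase knockout mice on a glycan-gene array. Its design text names small intestine among the tissues chosen for the St6galnac2 line, while the labels of the line say only intestine.

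The array measures genes that build, degrade, transport and bind glycans, with many cytokine, growth factor and receptor genes. In the gut, glycosyltransferases of the Golgi build the sugar chains of mucins and of the epithelial surface, and the chains differ between segments of the gut. B4galnt2 encodes the enzyme that adds the terminal N-acetylgalactosamine of the Sda/Cad antigen, a structure made in intestinal epithelium. Polypeptide GalNAc transferases start mucin-type O-glycans, and sialyltransferases such as St6galnac2 extend or cap them.

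Fut9 chose the arrays and is given without a test. Its values were 3.11, 2.99, 2.99 and 2.93 in animals 9361, 9362, 9094 and 9093, and 3.19, 3.09 and 3.11 in GDWTM3, GDWTF2 and GDWTF1. The highest array of the line that was kept stood at 3.11 and the array left out, from wild-type animal 9099, at 9.74. That array correlated with the 4 kept arrays at 0.716 to 0.732 across probe sets, and read 6.43 for Lgals4 and 6.26 for Muc13, a galectin and a mucin of gut epithelium. A brain-labelled array of the same animal read 13.61 for Lgals4, 12.71 for Muc13 and 3.21 for Fut9, which goes against its label. That array is in no comparison here.

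Both groups carried the epithelial genes of gut. Lgals4 lay between 13.42 and 13.73 on the 7 arrays, and Muc13 between 12.18 and 12.76. Ccl25, a chemokine made by small intestinal epithelium, read 11.56, 11.75, 11.78 and 11.70 in the line and 11.61, 10.28 and 11.34 in C57. The array medians were 5.30 to 5.34 in the line and 5.76, 5.66 and 5.43 in GDWTM3, GDWTF2 and GDWTF1, and the lowest and the highest median of the whole series were among these 7 arrays. GDWTM3 correlated least with its own group (0.946 and 0.965). GDWTF1 correlated at 0.983 with the mean of the line, and at 0.965 and 0.978 with the other C57 arrays. The first value is against an average and the others are against single arrays, so they are not like for like. P-values measure the spread between these animals.

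In the intestine, 8 of 909 genes were higher in the line (0.88%) and 109 were lower (12%), at an adjusted p under 0.05 with limma and Benjamini-Hochberg adjustment over all 1246 probe sets. Over probe sets, 153 were called (12.3%), of which 19 were higher (1.52%) and 134 lower (10.8%). Leaving out 1 animal moved this count widely: 111 probe sets were called without GDWTM3 (18 higher and 93 lower), 63 without GDWTF2 and 352 without GDWTF1. Of the line, leaving out 9361 gave 85, 9094 gave 34, 9093 gave 17 and 9362 gave 8. The median difference over all probe sets was -0.24 as deposited and 0.06 with each array centred on its median. After centring, 64 probe sets were called (5.14%), 34 higher (2.73%) and 30 lower (2.41%), and the share of calls lower in the line went from 87.6% to 46.9%. A total of 40 probe sets were called as deposited, with centring and with a second quantile normalization, 16 higher and 24 lower. The groups did not overlap for any called probe set, against 3.53% (line higher) and 29.5% (line lower) of all probe sets. With so few arrays a call nearly requires such separation, so this adds no support to the calls. In 119 of the 153 calls GDWTF1 was the C57 array nearest to the line. That share was not counted over all probe sets, so it is not a trait of the calls. GDWTF1 also had the C57 array median nearest to the line (5.43, against 5.66 and 5.76).

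B4galnt2 had by far the largest difference on the array. It read 7.40, 7.38, 7.82 and 7.29 in animals 9361, 9362, 9094 and 9093, and 12.43, 11.35 and 11.53 in GDWTM3, GDWTF2 and GDWTF1. All arrays of the line lay below all C57 arrays. The line was lower by 4.29 ± 0.27 (SE) on the log2 scale, which is 19.6-fold, with means of 7.47 ± 0.23 (SD, n = 4) and 11.77 ± 0.58 (SD, n = 3). B4galnt2 was singled out with results of these data known, so this difference is a description and carries no p-value. It stayed between -4.50 and -3.96 with each animal left out, and was -3.99 with the arrays centred. The start of the gene's promoter is shown here because B4galnt2 carries the largest difference. It comes from RefSeq on GRCm38.p6 and is the 250 bases upstream of the start site on chr11:95914872-95915121, minus strand, read 5′ to 3′. Capitals mark TTTAT or its reverse complement ATAAA, searched on both strands, the core that caudal-type homeobox factors of intestinal epithelium bind. ATAAA also lies inside the TATA box TATAAA.
B4galnt2: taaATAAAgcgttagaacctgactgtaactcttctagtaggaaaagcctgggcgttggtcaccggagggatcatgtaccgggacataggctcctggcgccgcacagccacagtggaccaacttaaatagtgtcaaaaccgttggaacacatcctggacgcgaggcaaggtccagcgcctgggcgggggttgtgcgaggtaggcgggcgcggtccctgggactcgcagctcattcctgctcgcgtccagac
The motif occurs in the upstream windows of 37.3% of the 32851 start sites of the table, so its presence here is a description only.

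In the brain of the same animals the difference of B4galnt2 ran the other way. Brain values were 4.46, 4.80, 4.51 and 4.39 in animals 9361, 9362, 9094 and 9093, and 3.67, 3.41 and 3.63 in the C57 animals. The line was higher in brain by 0.97, with no overlap between groups, at levels far below those of intestine. The C57 brain arrays lay below the 25th percentile of all values in the series (4.21) and the line arrays above it. This difference too is a description. The difference in intestine minus that in brain was -5.26 ± 0.32 (SE). The other tissues of the series include 18 arrays of a B4galnt1/B4galnt2 double knockout. Over the 34 arrays labelled neither intestine nor double knockout, B4galnt2 had a median of 4.36 and reached 8.09 at most, below the lowest C57 small intestine array. These arrays include the brain-labelled array of animal 9099 that goes against its label, at 7.27. The 18 double-knockout arrays had a median of 3.87, with the highest, from mammary gland, at 8.53.

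**Figure D1:**
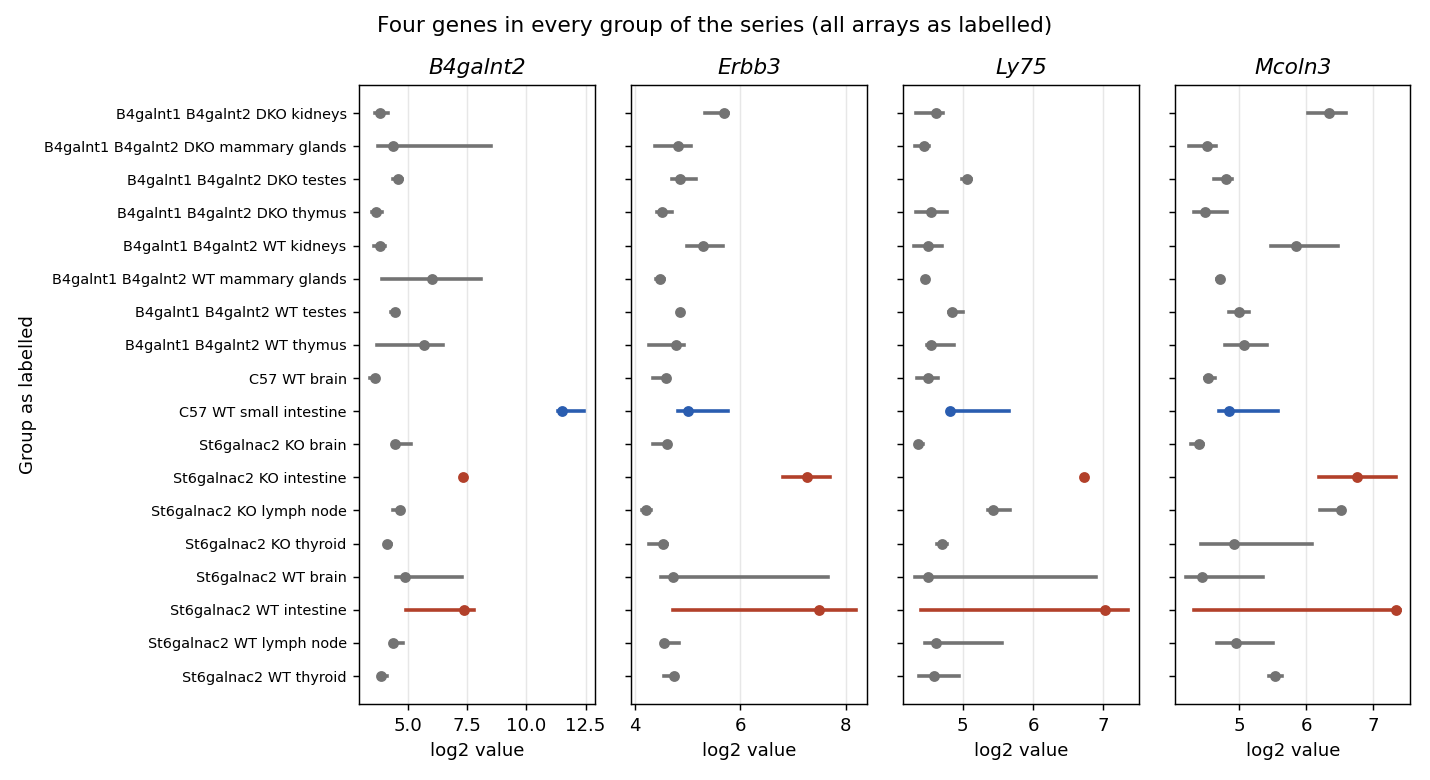
Range (line) and median (dot) of the log2 value of B4galnt2, Erbb3, Ly75 and Mcoln3 in all 18 groups, every array as labelled, with C57 small intestine in blue, intestine of the St6galnac2 line in red and other groups in grey. C57 small intestine lies between 11.35 and 12.43 for B4galnt2, and the wild-type intestine group of the line includes the array left out at a Fut9 value of 9.74. The wild-type brain group of the line includes the array of animal 9099 that goes against its label. That array gives the group its highest values of B4galnt2 (7.27), Erbb3 (7.67), Ly75 (6.90) and Mcoln3 (5.36).

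The other 2 genes targeted in the series, St6galnac2 and B4galnt1, did not pass the test. St6galnac2, the gene knocked out in the line, read 8.65, 8.74, 8.77 and 8.74 in the line, with the 2 animals labelled knockout first and last. It read 9.94, 8.68 and 8.89 in C57, and the groups overlapped (difference -0.45 ± 0.28 SE, adjusted p = 0.283 with limma). The animals labelled knockout did not stand apart from the wild-type animals of the line on this probe set, and whether its probes lie in the deleted part is not given in the sources used here. B4galnt1, a ganglioside-synthesis enzyme, differed by -0.17 ± 0.49 (SE, adjusted p = 0.833 with limma). Among the 6 beta-GalNAc transferases measured, B3galnt1 was also called, lower by 0.94 (adjusted p = 0.0387 with limma). That call ended with centred arrays (adjusted p = 0.0801) and with 5 of the 7 animals left out one at a time (adjusted p up to 0.113).

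The largest rise was that of Erbb3, a receptor of neuregulins in the epidermal growth factor receptor family. It read 6.81, 7.49, 8.19 and 7.70 in animals 9361, 9362, 9094 and 9093 and 4.82, 5.01 and 5.76 in GDWTM3, GDWTF2 and GDWTF1. Every line array stood above every C57 array, and the line was higher by 2.35 ± 0.35 (SE, adjusted p = 0.0156 with limma). Mcoln3, a cation channel of endosomes and lysosomes, read 7.33, 7.39, 7.34 and 6.19 in the line and 4.86, 4.71 and 5.58 in C57. Animal 9093 was the lowest of the line but still above C57, and the difference was 2.02 ± 0.35 (SE, adjusted p = 0.0188 with limma). Ly75, an endocytic C-type lectin receptor of dendritic cells, read 6.69, 7.02, 7.35 and 6.76 in the line and 4.82, 4.81 and 5.66 in C57. The groups were apart, with a difference of 1.86 ± 0.25 (SE, adjusted p = 0.0126 with limma). The brain-labelled array of animal 9099 that goes against its label, in no comparison here, read 5.36 for Mcoln3, within the C57 values. It read 7.67 for Erbb3 and 6.90 for Ly75, within the values of the line. Promoters of Ly75 and Mcoln3 are shown for comparison with that of B4galnt2, from RefSeq on GRCm38.p6, at chr2:60383274-60383523 (minus strand) and chr3:146121541-146121790 (plus strand).
Ly75: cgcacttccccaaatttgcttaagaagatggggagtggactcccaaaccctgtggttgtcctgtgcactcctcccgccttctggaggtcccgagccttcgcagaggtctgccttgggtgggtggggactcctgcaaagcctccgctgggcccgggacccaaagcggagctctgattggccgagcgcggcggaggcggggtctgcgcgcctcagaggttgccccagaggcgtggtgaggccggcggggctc
Mcoln3: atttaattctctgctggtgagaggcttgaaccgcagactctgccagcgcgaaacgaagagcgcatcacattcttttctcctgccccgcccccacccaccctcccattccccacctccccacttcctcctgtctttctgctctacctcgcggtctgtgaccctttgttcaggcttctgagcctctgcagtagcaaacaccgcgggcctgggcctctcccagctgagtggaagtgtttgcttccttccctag
Neither window holds the motif, which 37.3% of the start sites of the table carry. Of the 20 leading genes 16 have a promoter in the table, and only some are shown. A link between the motif and the direction of a difference was not tested. The call of Erbb3 ended without animal 9362 and without animal 9093, that of Mcoln3 without 9362 and without 9094, and that of Ly75 without 9362, with adjusted p up to 0.062, 0.0697 and 0.0573 in these fits and differences that stayed at 1.72 or above.

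None of these 3 genes was called in brain, where the line differed from C57 by 0.08 for Erbb3, -0.16 for Mcoln3 and -0.09 for Ly75. All read low there: C57 brain arrays lay at 4.34 to 4.64 for Erbb3, 4.49 to 4.64 for Mcoln3 and 4.35 to 4.64 for Ly75. The 25th percentile of all values in the series was 4.21. In the test of the difference itself, intestine minus brain, they were called, at 2.27 ± 0.39 (SE, adjusted p = 0.014), 2.18 ± 0.38 (adjusted p = 0.014) and 1.95 ± 0.29 (adjusted p = 0.00683) with limma. Over all genes this test called 9 of 909 (0.99%), 3 of them higher (0.33%) and 6 lower (0.66%). Erbb3, Mcoln3 and Ly75 were the 3 higher ones. With brain values this low, the test rests mainly on their intestine values. In this test all 3 calls ended without GDWTM3 (adjusted p up to 0.0791), that of Erbb3 also without 9094 or 9093, and that of Mcoln3 also without GDWTF2, 9361 or 9094, while the differences stayed at 1.74 or above.

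Other genes rose in both tissues or by less. Galnt7, a polypeptide GalNAc transferase that acts on partly glycosylated mucin peptides, read 8.33, 7.95, 8.18 and 8.02 in the line and 6.39, 7.02 and 6.82 in C57. It was higher by 1.38 ± 0.17 (SE, adjusted p = 0.0125 with limma), and remained called with each animal left out. Rab7, a GTPase of late endosomes, was higher by 2.33 in intestine and 1.39 in brain (adjusted p = 0.0421 and 0.00669 with limma), and its C57 arrays in intestine spread from 5.69 to 8.51. Rab7 was not called in intestine with the arrays centred (adjusted p = 0.0661). Uxs1, which makes UDP-xylose, and Pigb, a mannosyltransferase of the glycosylphosphatidylinositol anchor, were higher by 0.80 and 0.48. The calls of Rab7, Uxs1 and Pigb each ended with 5 of the 7 animals left out one at a time, adjusted p reaching at most 0.126.

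**Figure D2:**
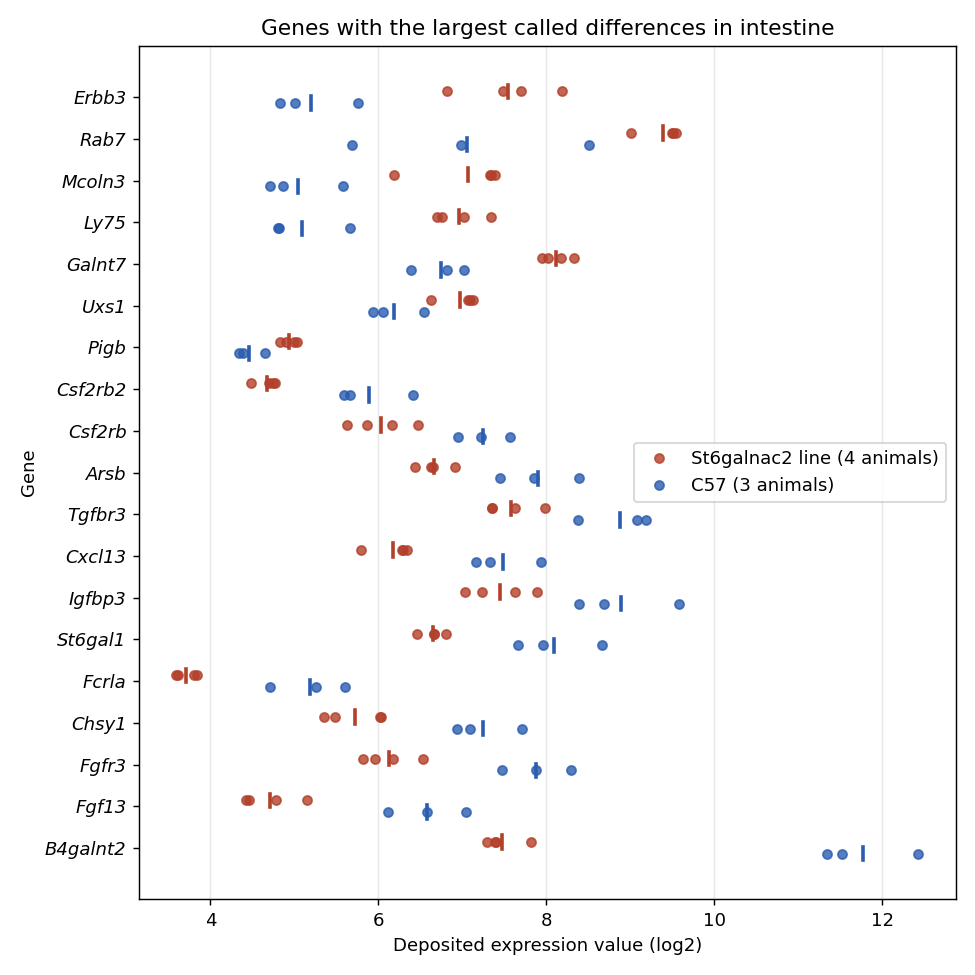
Deposited log2 value of each intestine array for 7 called rises and the 12 largest called falls, with the St6galnac2 line in red (4 animals), C57 in blue (3 animals) and vertical ticks at the group means. The groups do not overlap for any of these 19 genes, which were chosen by their calls, and B4galnt2 has the widest gap.

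Among the falls, the 12 largest by gene were B4galnt2 and 11 others with differences from -1.88 to -1.21. Fgf13, an intracellular fibroblast growth factor homologous factor, read 4.78, 5.15, 4.46 and 4.43 in the line and 7.05, 6.58 and 6.12 in C57, lower by 1.88 ± 0.26 (SE, adjusted p = 0.0126 with limma). It was the only one of these 11 that stayed called with each animal left out. Fgfr3, a fibroblast growth factor receptor, was lower by 1.76 ± 0.24 (SE, adjusted p = 0.0126 with limma). Its line arrays lay between 5.82 and 6.54 and its C57 arrays between 7.47 and 8.30, and the call ended without animal 9362. Chsy1, a chondroitin polymerising enzyme, was lower by 1.53, and St6gal1, which adds alpha-2,6 sialic acid to N-glycans, by 1.45 (both adjusted p = 0.0184 with limma). Igfbp3 (-1.44), Tgfbr3 (-1.30), the lysosomal sulfatase Arsb (-1.24) and the paralogs Csf2rb (-1.21) and Csf2rb2 (-1.21) made up most of the rest. The call of Igfbp3 ended with centred arrays (adjusted p = 0.0615 with limma). With the 7 animals left out one at a time, Igfbp3 was called in 2 fits, Tgfbr3 in 3, and Arsb, Csf2rb and Csf2rb2 in 4 each. Csf2rb and Csf2rb2 are near-identical copies whose probes may share signal. Without animal 9362, no gene of the 20 leading ones except B4galnt2, Fgf13 and Galnt7 was called. Of the 20, 7 stayed called without 9093, 11 without 9094, 13 without GDWTF2 and 16 without 9361.

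The other leading falls were those of Fcrla and Cxcl13. Fcrla, an Fc receptor-like protein of B cells, read 3.59, 3.80, 3.61 and 3.84 in the line and 5.60, 5.25 and 4.71 in C57. It was lower by 1.48 ± 0.21 (SE, adjusted p = 0.0126 with limma), with the line below the 25th percentile of all values in the series (4.21). Cxcl13, the chemokine that draws B cells into follicles, read 6.30, 6.34, 5.80 and 6.28 in the line and 7.94, 7.33 and 7.17 in C57. It was lower by 1.30 ± 0.22 (SE, adjusted p = 0.0188 with limma). Both were called in intestine minus brain, each at -1.32 (adjusted p = 0.014 for Fcrla and 0.0193 for Cxcl13 with limma). Brain arrays of both groups lay below that percentile, at 2.91 to 3.16 for Fcrla and 3.71 to 4.07 for Cxcl13. With brain values this low, the test rests mainly on the intestine values. With the animal as a replicate block, Cxcl13 was no longer called (adjusted p = 0.0675 with limma). Both calls of intestine minus brain ended without GDWTM3, GDWTF2, 9361 or 9094, and that of Cxcl13 also without 9093, with adjusted p up to 0.0848. In intestine alone, the call of Fcrla ended without 9362, and that of Cxcl13 without 9362 or 9093. The promoters are shown because both genes were called in intestine minus brain. They come from RefSeq on GRCm38.p6, at chr1:170927584-170927833 (minus strand) for Fcrla and chr5:95956689-95956938 (plus strand) for Cxcl13.
Fcrla: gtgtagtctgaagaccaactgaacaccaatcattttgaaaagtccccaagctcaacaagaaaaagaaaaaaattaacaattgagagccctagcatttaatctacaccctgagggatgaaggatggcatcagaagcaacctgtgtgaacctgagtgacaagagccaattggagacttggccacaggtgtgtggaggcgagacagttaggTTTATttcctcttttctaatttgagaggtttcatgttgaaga
Cxcl13: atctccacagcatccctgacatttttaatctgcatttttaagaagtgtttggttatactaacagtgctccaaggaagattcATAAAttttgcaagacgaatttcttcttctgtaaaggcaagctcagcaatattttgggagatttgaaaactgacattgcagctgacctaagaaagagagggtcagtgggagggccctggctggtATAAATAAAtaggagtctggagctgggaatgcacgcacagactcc
Cxcl13 carries 3 matches, among them a pair that overlaps around a TATA-like stretch, and Fcrla carries 1.

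Markers of other cell types were counted beside these genes, where 12% of all genes were called lower and 31.6% had the line below C57 with no overlap. Of 6 measured B-cell and plasma-cell markers, 1 (Fcer2a, -0.82, adjusted p = 0.033 with limma) was called lower and 5 had groups that did not overlap. With the arrays centred, 0 of the 6 were called with limma (3 at an unadjusted p under 0.05). Their median difference was -0.77, against -0.27 over all genes, and their summed level was 8.23 to 8.47 in the line and 8.75 to 9.71 in C57. Of 9 macrophage and dendritic-cell markers, 3 were lower (Csf1r, Clec10a and Siglec1, -0.80 to -0.61), with a summed level of 9.29 to 9.66 against 9.89 to 10.49, and Clec10a alone was called with the arrays centred (adjusted p = 0.0498, against 0.108 for Csf1r and 0.0806 for Siglec1). Among 12 T-cell and NK-cell markers, Cxcr3 and Ccr7 were called lower, with overlapping summed levels, and neither was called with the arrays centred. Of 7 endothelial markers, Icam2 was lower by 0.62, and of 9 connective tissue and smooth muscle markers Bgn was lower by 0.61, and both calls ended with the arrays centred (adjusted p = 0.208 and 0.233 with limma). Of the intestinal epithelium markers, 0 of 5 were called with limma (1 at an unadjusted p under 0.05), with Galnt4, a polypeptide GalNAc transferase, at -0.75 (adjusted p = 0.0613). Their summed level overlapped, at 14.58 to 14.82 in the line and 14.70 to 14.73 in C57. In such bulk tissue, fewer cells of a type and less RNA per cell cannot be told apart, and the part of these cells in the differences was not tested.

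Genes of gut segment and host defence were described by counts. Of 5 measured genes known to be higher toward the colon, the other 4 besides B4galnt2 were not called (Muc4 0.45, B3gnt6 0.24, Reg4 0.34 and Fut2 -0.11, with the groups overlapping for each). With centred arrays, B3gnt6, a mucin core 3 enzyme, was called higher (0.54, adjusted p = 0.0462 with limma), and the sign of Fut2 turned to 0.19. The median of the 5 was 0.24 as deposited, against -0.27 over all genes. Reg2, a secreted lectin of the Reg family, read 4.26, 4.47, 5.64 and 4.37 in the line and 8.59, 4.61 and 9.22 in C57, which overlapped (-2.79, adjusted p = 0.106 with limma). Reg2 and Reg1 were the measured markers of exocrine pancreas, whose summed level ran from 9.94 to 12.41 in the line and from 9.02 to 13.08 in C57.

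Growth factor and signalling genes are read against the 12% of all genes called lower and 0.88% called higher, and the median of -0.27 over all genes. Of 35 growth factor genes and receptors, 8 were lower and 1, Erbb3, was higher, at a median of -0.36. With the arrays centred, 1 was called lower and 1 higher. Besides Fgfr3 and Igfbp3, the called falls included Igfbp5 (-1.15), Fgfr2 (-1.08), Vegfa (-1.03) and Pdgfc (-0.99). Of 25 Notch and Wnt genes, 9 were lower, with a median of -0.51. Fzd2 (-1.15), Fzd1 (-1.06), Fzd6 (-1.02), Notch1 (-0.98), Fzd5 (-0.97) and Dll1 (-0.89) were among them. With the arrays centred, 1 of the 25 was called lower, where 2.97% of all genes were. Tgfbr2 (-1.20), Tgfbr3 (-1.30) and Acvr1 (-0.98) were the 3 called of 22 TGF-beta and BMP genes, where the median was -0.33, and 2 were called with the arrays centred. A second probe set of Tgfbr2 differed by 0.04.

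Glycan enzymes were counted by pathway against the same background. Of 19 chondroitin sulfate enzymes, which build and sulfate the chondroitin chain, 5 were called lower. They were Chsy1, Chst3 (-1.04), Chst11 (-0.87), Ust (-0.87) and Chst15 (-0.42), and 3 of the 19 were called lower with the arrays centred. The median of the list was -0.47. Of 24 heparan sulfate enzymes 3 were lower (Hpse -1.09, Ndst2 -0.75 and Extl3 -0.66), 1 of them with the arrays centred. Of 19 polypeptide GalNAc transferases, Galnt7 was higher and Galnt17 (-0.80), Galnt10 (-0.61), Galnt16 (-0.58) and Galnt18 (-0.53) were lower. With the arrays centred, 2 of the 19 were called higher and 1 lower. Of 10 fucosyltransferases, Fut4 (-0.97) and Fut10 (-0.62) were lower. The 3 probe sets of Fut4 ran from -2.07 to -0.67, the last of them not called (adjusted p = 0.0563 with limma). A second probe set of Fut10 differed by -0.24 and was not called (adjusted p = 0.376 with limma). Neither gene was called with the arrays centred (adjusted p = 0.0866 and 0.133 with limma). Of 19 sialyltransferases, only St6gal1 was called.

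Cytokine and lectin genes are read against the same 12% of all genes called lower and 0.88% called higher. The shares called lower in the lists of lectins, chemokines and interleukins were near 12% or below it. Ly75, a lectin, was the only called rise in these lists. Of 32 C-type lectins and Siglecs of immune cells, 4 were lower and 1, Ly75, was higher, and 1 in each direction was called with the arrays centred. Cxcl12, a chemokine of stromal cells, read 7.45, 6.76, 7.10 and 7.07 in the line and 8.27, 8.47 and 7.86 in C57. It was lower by 1.11 (adjusted p = 0.0214 with limma), and with Cxcl13 made up the 2 called of 29 chemokines, whose median was -0.14. Of 48 interleukin genes and receptors 5 were lower, led by Il10ra, the ligand-binding chain of the interleukin-10 receptor, at -0.83 (adjusted p = 0.0156 with limma). Its line arrays lay between 4.99 and 5.36 and its C57 arrays between 5.86 and 6.01. None of the 5 was called with centred arrays. Lgals9, a galectin, read 11.45, 11.63, 11.42 and 11.87 in the line and 9.19, 10.84 and 11.30 in C57. The groups did not overlap, but the difference of 1.15 was not called (adjusted p = 0.122 with limma), with GDWTM3 far below the other C57 arrays.

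**Figure D3:**
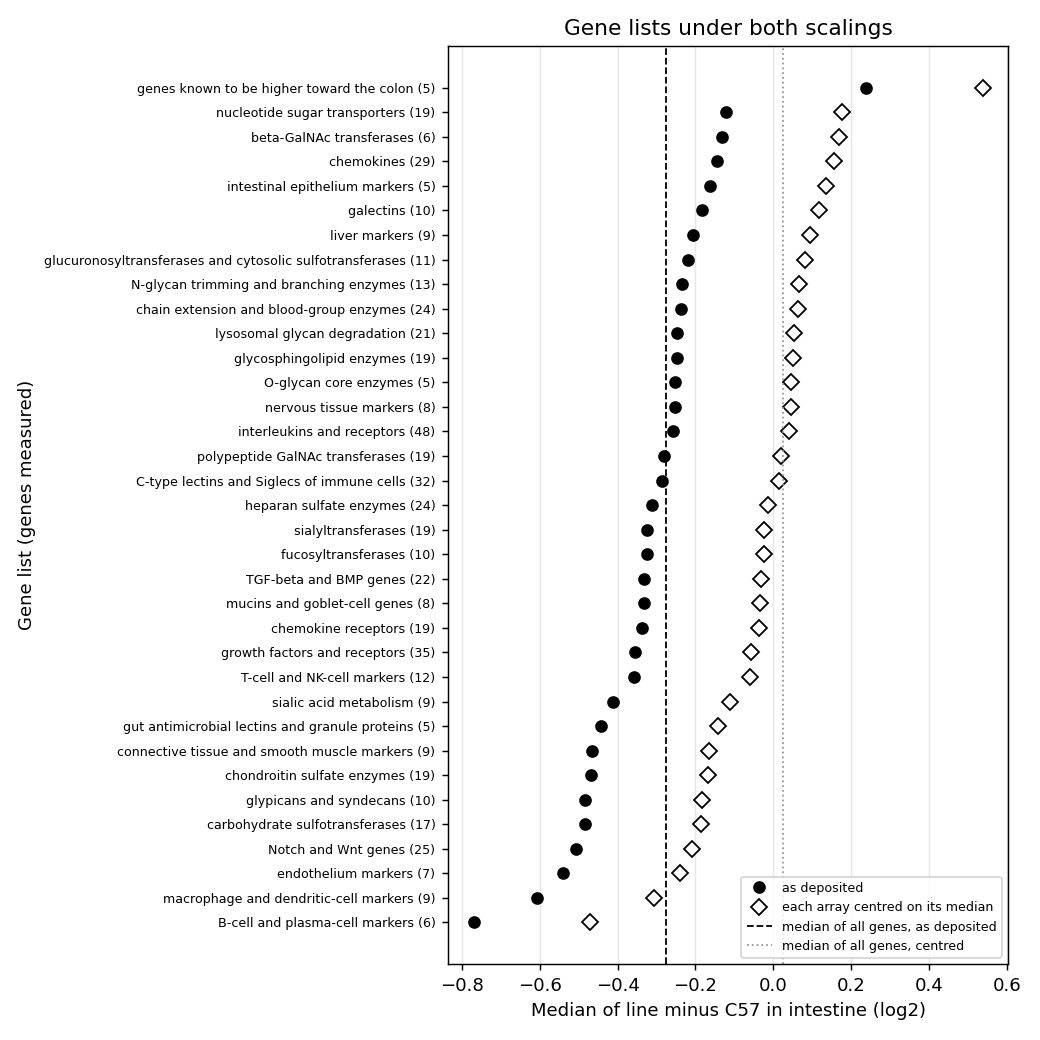
Median difference (line minus C57, log2) of each gene list with at least 5 measured genes, as deposited (filled) and with each array centred on its median (open), with lines at the medians over all genes. Centring moves every list up by 0.30, and B-cell and plasma-cell markers stay lowest under both scalings at -0.77 and -0.47.

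The line difference in brain gives the same animals where no part of the gut enters. There 7 of 909 genes were higher (0.77%) and 49 lower (5.39%). Of the probe sets called in intestine, 25 were also called in brain, 24 in the same direction, and B4galnt2 was the 1 in the opposite direction. B4galnt2 is counted here but stays a description, with its C57 brain values near the low end of the series. Of the 62 named genes called in intestine, 13 were called in brain, among them Fgfr3 (-0.66), Tgfbr2 (-0.77), Acvr1 (-0.58) and Bgn (-0.64). Of these 4 brain calls, that of Bgn alone stayed with each animal left out, and those of Fgfr3, Tgfbr2 and Acvr1 were also lost with centred arrays. Across probe sets the differences in both tissues had a Pearson correlation of 0.418, over 1246 probe sets that share their animals and array levels.

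**Figure D4:**
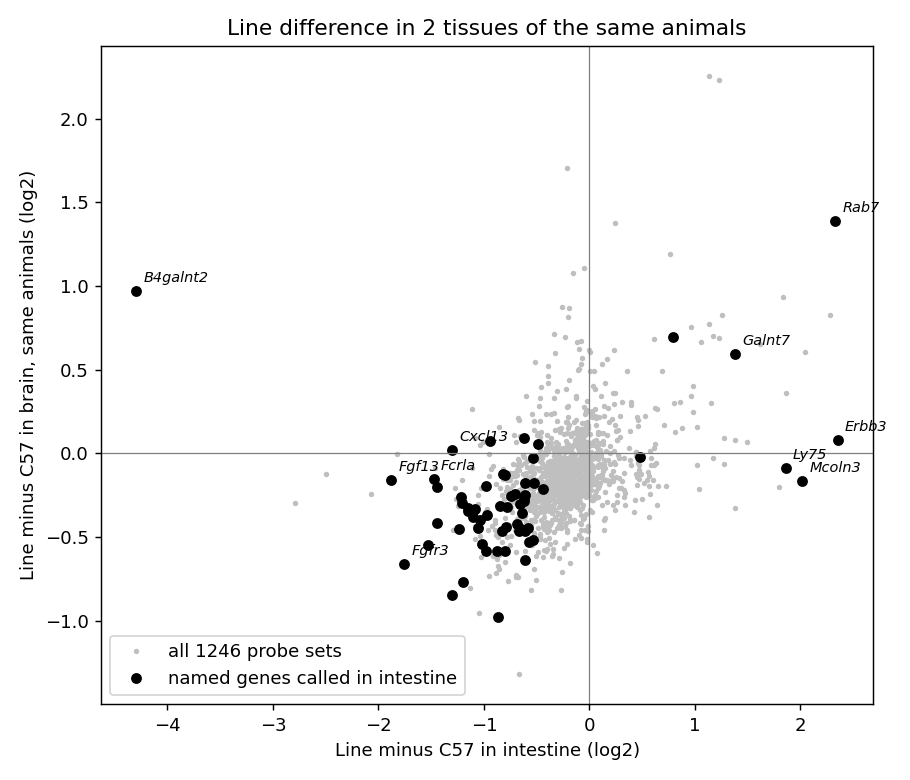
Line minus C57 (log2) in intestine against the same in brain for all 1246 probe sets (grey) and the named genes called in intestine (black). B4galnt2 lies at -4.29 in intestine and 0.97 in brain, and Rab7 is raised in both tissues.

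Within the line, knockout minus wild type had a median size of 0.11 over all 909 genes, and line minus C57 one of 0.33. For 206 genes (22.7%) knockout minus wild type was the larger of both in size, among them B4galnt1 (-1.06 against -0.17) and Reg1 (-1.76 against -0.34). With 2 animals of each genotype this is a description without a test. The sizes are not like for like, since deposited line minus C57 also holds the difference in array level. Its median over all genes was -0.27 as deposited and 0.02 with centred arrays. The arrays of the line had nearly equal medians (5.30 to 5.34). With all 5 intestine arrays of the line as labelled, 13 probe sets were called in place of 153, and B4galnt2 differed by -4.80. Mouse line, gut part and the handling of the groups cannot be told apart in this design.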

How the data were processed

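Total RNA was hybridised to a custom Affymetrix array, and the deposited values are log2 values made by the authors with RMA, per the submitters' processing notes. The version, the build and whether all arrays were normalized together are not given in the sources used here. Values were used as deposited. Of 1246 probe sets, 963 matched a RefSeq accession of the supplied table (909 genes) and 283 have no symbol here. A gene is represented by its probe set with the highest mean over the 7 arrays.

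The animal was the replicate. The St6galnac2 line was compared with C57 by limma 3.58.1 (R 4.3.3, linear model with moderated statistics, 2-sided), in intestine, in brain of the same animals, and as intestine minus brain, with Benjamini-Hochberg adjustment over all probe sets and a call at 0.05. In simulated data, 200 of 1246 probe sets were changed. There the intestine fit recovered 81% of 2-fold and 95% of 4-fold changes, with 8 false calls among the unchanged probe sets. The simulated probe sets varied independently and the arrays had no shifts in level. The real arrays differ in their medians, so these values do not give the power or the false calls of the real comparison. Intestine and brain of 1 animal pair by the labels, and their deviations correlated at -0.153 to 0.154. For arrays, the number of animals limits the precision.

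The members, the marker and the gene lists were chosen with earlier results of these data known. Named genes are the 12 largest called rises and falls (8 rises were called, of which 1 is not reported here), the targeted genes and Fut9, and per list up to 4 called members or the one with the smallest p. Fzd5, Dll1, Fgfr2, Vegfa, Pdgfc, Chst15, Galnt18, Lgals4, Muc13, Muc4, B3gnt6, Reg4, Fut2 and Reg1 are named besides as list members.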

Additional observations from a re-analysis of the deposited data

Results flagged for a closer look

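The line difference in intestine differed from that in brain by the test of the difference itself for Erbb3 (2.27), Mcoln3 (2.18), Ly75 (1.95), Cxcl13 (-1.32) and Fcrla (-1.32), log2. These genes read low in brain, so the test rests mainly on their intestine values. B4galnt2 stood at -5.26, which is given as a description, since the gene was singled out with results of these data known.

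Among the 75 named genes, 13 had 1 intestine array of the line far from the other 3 by Dixon's criterion, which chance meets in about 1 in 20 groups. Animal 9361 stood apart for Il1r1 (6.05), Rab7 (9.01), Sdc3 (6.92), Fzd1 (6.35) and Uxs1 (6.63). Animal 9093 did for Fut4 (6.63), Siglec1 (4.76), Angptl4 (8.50), Mcoln3 (6.19) and Galnt17 (4.98). Animal 9094 did for Reg2 (5.64), Chst3 (4.38) and Cxcl13 (5.80).

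The intestine-labelled array of animal 9099, which the comparison leaves out, read 9.74 for Fut9.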

How the results depend on the processing

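In intestine 153 probe sets were called as deposited, and under other settings the counts were 64 with centred arrays (47 of them also called as deposited), 64 with a second quantile normalization, 88 with genotype as a covariate, 46 with a difference of at least 1, 13 with all 5 arrays as labelled and 358 where brain arrays shared the fit. With limma they were 0 with the wild-type animals of the line only (267 at an unadjusted p under 0.05), 1 with knockout animals only, 1 with males only and 0 with females only (231 unadjusted). Leaving out each animal gave 8 (without 9362) to 352 (without GDWTF1). The 73 calls in brain became 23 with centring and 15 to 94 with an animal left out. The 16 calls of intestine minus brain became 27 with centring, 11 with the animal as a replicate block, and 2 (without GDWTM3) to 33 (without GDWTF1). Within intestine or within brain no paired analysis was possible, because line and C57 are different animals. For intestine minus brain, the fit with the animal as a replicate block is the paired one, and the main fit ignored the pairing. Of 62 named called genes, 24 stayed called with centring and 3 without 9362. With all 5 arrays as labelled, Ust (0.14), Sdc3 (0.0048) and Chst10 (0.40) reversed. The cause of these changes was not tested. With 4 and 3 animals, small differences were not resolved.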
